A study of Mus musculus with 2 samples.

Results

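Gene deserts are long stretches of a chromosome that hold no annotated gene, and the peaks described here are those that Dnmt1-Dam left in such stretches at positions where no repeat was named. A peak was taken when the deposited table called it intergenic, named no repeat at it, and placed it more than 100 kb from both ends of the gene assigned to it. This held for 1092 of the 8226 deposited peaks, or 13.3% (exact 95% interval 12.5 to 14.03). DamID was run on 2 libraries of mouse embryo DNA. The first came from 50 embryos injected with Dnmt1-V5-Dam, a fusion of the DNA methyltransferase Dnmt1 to a V5 tag and to the bacterial adenine methylase Dam, and the second from 50 embryos injected with Dam-only. Both pools were 4/8-cell embryos grown from zygotes of the strain BCF1 (C57BL/6 x CBA/CA), whose mothers were hormone-primed at 5 weeks of age, and no genotype or treatment other than the construct is given. Each group is 1 library made from pooled embryos that carried an injected construct, so no value has a replicate check and no p-value was computed.

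Dnmt1 copies methylation of CpG cytosines onto the new strand when DNA is replicated, and in cleavage-stage embryos it is known for keeping methylation at imprinted regions and at some retroelements while much of the genome loses it. Dam adds methyl groups to adenine in GATC sequences, so a Dam fusion leaves a trace near the places its partner visits. Dam without a partner marks DNA that is open to it, and is the background for the fusion. Gene deserts hold few promoters, are often poor in CpG islands, and in mammals frequently border genes of development and of the nervous system, for which they can hold distant enhancers.

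The label was checked against the table itself. Each of the 1092 peaks was assigned to the gene with the nearest start site among the 4903 transcripts that the table lists. Of the 1092, 36 (3.30%) lay within 100 kb of the body of another listed gene, and 1056 were farther than that from every listed gene. Genes with no peak are not in the table, so 36 is a lower count. Distances to the assigned gene had a median of 266 kb (interquartile range 161 to 444 kb), with 10% of the peaks beyond 727 kb and the most distant at 2200.5 kb. At the threshold, the nearest peaks inside were 100.1 kb from Epb41l4a (height 10 for Dnmt1-Dam against 1 for Dam-only) and 100.3 kb from Dhrs4 (19 against 5). The nearest repeat-free intergenic peaks outside were 99.9 kb from Lpar1 (7 against 1) and 99.6 kb from Bod1l (9 against 1).

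The table gives each peak a height in each library, as a whole number whose scaling is not stated. At the 1092 gene desert peaks the Dnmt1-Dam height had a median of 8 (interquartile range 7 to 11), and 348 peaks (31.9%) stood at 7, the lowest height listed. Over all peaks 26.8% stood at 7. A height of 20 or more was reached by 23 gene desert peaks (2.11%, 1.34 to 3.14), where the share over all peaks was 2.63%, inside that interval. The Dam-only height was 1 at 888 peaks, 2 at 103, 3 at 53, 4 at 29 and 5 or more at 19, with a maximum of 9. Summed over these peaks, the heights were 10476 for Dnmt1-Dam and 1476 for Dam-only. In no listed position did Dnmt1-Dam exceed Dam-only by under 6 or by a factor under 2, so a higher Dnmt1-Dam value is a condition of being listed. A ratio of heights of 10 or more was reached by 271 of the 1092 peaks (24.8%, 22.3 to 27.5), where the share over all peaks was 23.4%, which lies inside that interval. A Dnmt1-Dam height of 15 or more was reached by 84 (7.69%, 6.18 to 9.44), where the share over all peaks was 8.66%, also inside. The median log2 ratio was 0.21 with Dam-only scaled to the Dnmt1-Dam sum over all peaks and a pseudocount of 1, and it was 0.21 over all peaks. That scaling makes both sums over the list equal, so medians near 0 follow from it. They do not measure how far Dnmt1-Dam exceeds Dam-only. Without scaling the median of gene desert peaks was 2.17.

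The highest of these peaks stood 165 kb upstream of Rpl37, a ribosomal protein gene, at position 4901291 of chromosome 15 (mm9 throughout), with a height of 62 for Dnmt1-Dam against 4 for Dam-only. The next was also the most distant of all. It lay at position 28232061 of chromosome 18, 2200.5 kb upstream of Pik3c3, which encodes a lipid kinase of autophagy, and reached 42 against 2. Its nearest neighbouring peak of any class was 913990 bp away. Neither of these summits had another peak within 100 kb.

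Further summits among the 10 highest were lower and fell at genes of varied roles. The peak 262 kb upstream of Cdh18, a cadherin gene, had 31 against 5 (chromosome 15, 22704561). That upstream of Tcf4, a helix-loop-helix transcription factor gene, had 29 against 1 (chromosome 18, 69362771). The peak upstream of Ccdc68, a coiled-coil protein gene farther along that chromosome, had 23 against 2 (69942891). It lay downstream of Tcf4, whose listed body ends at 69847621, and so is among the 36 peaks within 100 kb of another listed gene. Spin1, a reader of histone methylation that is abundant in oocytes, had 28 against 1 at 161 kb upstream (chromosome 13, 51035731). Tnc, an extracellular matrix gene, had 28 against 2 at 459 kb upstream (chromosome 4, 64140371). The peak downstream of the zinc finger gene Zfp516 had 28 against 3 (chromosome 18, 83598721). The peak 1267 kb upstream of Lrrn3, a leucine-rich repeat protein of neurons, had 28 against 7 (chromosome 12, 43479491), the second highest Dam-only height among gene desert peaks together with 2 others. The highest Dam-only value, 9, was beside a Dnmt1-Dam height of 23 at the peak 139 kb upstream of Tpd52 (chosen after its values were seen). The peak at Tpd52 was level in Dnmt1-Dam height with that at Ccdc68, which took the last of the 10 places by its lower Dam-only height.

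**Figure D1:**
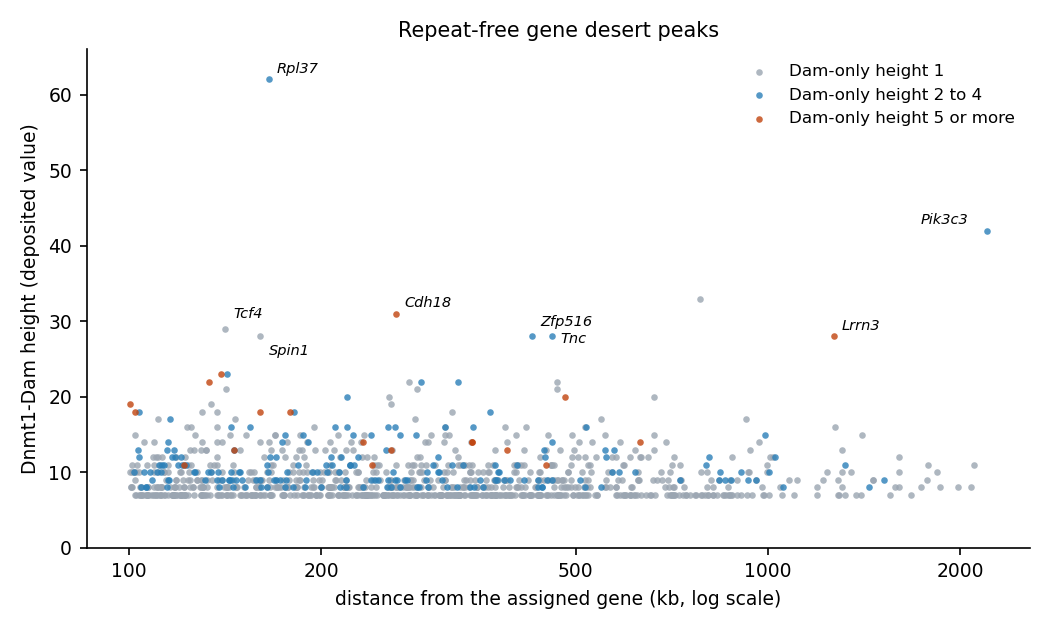
Dnmt1-Dam height (vertical axis, deposited value) against the distance from the assigned gene (horizontal axis, kb, log scale) for the 1092 repeat-free gene desert peaks, 1 point a peak, coloured by Dam-only height. Most points lie at heights of 7 to 11 at every distance, and the named peaks at Rpl37 (62) and Pik3c3 (42) stand above the rest.

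The farthest peaks were megabases from the assigned gene. After that at Pik3c3 came a peak 2100.6 kb upstream of Stxbp6, a syntaxin-binding protein gene, with 11 against 1 (chromosome 12, 48276031). On chromosome 8, peaks at 52522241 and 51740691 were 2074.8 kb upstream of Aga, a lysosomal enzyme gene, and 1980.6 kb upstream of Tenm3, a teneurin adhesion receptor gene, and both had 8 against 1. A further one, 1861 kb upstream of the contactin-associated gene Cntnap5a (chromosome 1, 115720281), also had 8 against 1. Apart from the Pik3c3 peak, these positions had heights within the interquartile range of 7 to 11. Over all 1092 peaks, 631 (57.8%, 54.8 to 60.7) were upstream of the assigned gene and 461 downstream. Among repeat-free intergenic peaks within 100 kb of their gene, called near-gene peaks from here on, 56.0% were upstream (difference 1.76 percentage points, 95% Newcombe interval -2.25 to 5.76). Assignment was by start site, and a downstream peak is farther from that site by the length of the gene.

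Gene desert peaks more often had the lowest Dam-only height than repeat-free peaks elsewhere. The Dam-only height was 1 at 81.3% of gene desert peaks (78.9 to 83.6), where the share over all 8226 peaks was 75.8%. It was 1 at 946 of the 1262 near-gene peaks (74.96%), a difference of 6.36 points (3.01 to 9.66), and at 1713 of the 2314 repeat-free gene body peaks (74.0%), a difference of 7.29 points (4.31 to 10.2). The share was the higher one in gene deserts on 16 of 19 autosomes against near-gene peaks and on 18 of 19 against gene body peaks. Against the 810 gene desert peaks that carry a repeat, of which 77.5% stood at 1, the difference was 3.79 points (0.132 to 7.51), with gene deserts without a repeat higher on 13 of 19 autosomes. No Dam-only height under 1 is listed, and whether 1 also stands for 0 is unknown.

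The list itself ties both heights together, since a peak of Dnmt1-Dam height 7 can only be listed at a Dam-only height of 1. Peaks at 7 made up 31.9% of gene desert peaks and 27.1% of near-gene peaks (difference 4.77 points, 1.08 to 8.46). They made up 25.6% of repeat-bearing gene desert peaks (difference 6.31 points, 2.19 to 10.3). Of repeat-free gene body peaks they made up 25.3% (difference 6.54 points, 3.30 to 9.86). For these last 2 classes as wholes the difference in Dam-only height was not recomputed without the peaks at 7. The part of the floor in it was therefore not tested. Repeat-bearing gene desert peaks of height 8 or more are given below by bins of distance only. Among peaks of height 8 or more, a limit chosen after the data had been seen, 72.6% of gene desert peaks stood at a Dam-only height of 1, and the difference from near-gene peaks was 6.93 points (2.46 to 11.3). Within bands of Dnmt1-Dam height the difference was uneven. At heights of 11 to 14 it was 17.0 points (7.94 to 25.5), with 139 of 195 gene desert peaks and 138 of 254 near-gene peaks at a Dam-only height of 1. At height 8 it was 1.79 points (-5.43 to 8.84), at 9 to 10 it was 3.72 (-3.92 to 11.2), and at 15 or more it was 0.689 (-13.1 to 14.3), so in these bands a difference was not detectable.

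Along the distance from the gene, the share of repeat-free intergenic peaks at a Dam-only height of 1 was 74.1% (69.7 to 78.1) within 20 kb, 75.1% between 20 and 50 kb, and 75.9% between 50 and 100 kb. Inside the gene deserts it was 77.7% (73.2 to 81.7) between 100 and 200 kb, 82.0% (78.3 to 85.3) between 200 and 500 kb, 87.1% (81.1 to 91.7) between 500 and 1000 kb, and 83.3% (69.8 to 92.5) at the 48 peaks beyond 1000 kb. The intervals of the bins next to each other overlap. Among peaks of height 8 or more the same bins inside the deserts had 69.2%, 72.7%, 79.2% and 78.4%. At repeat-bearing intergenic peaks the bins beyond 100 kb had 76.5%, 79.2%, 78.9% and 71.2%, each with an interval that overlaps that of the repeat-free bin. With height 8 or more these repeat-bearing bins had 68.1%, 71.9%, 73.0% and 59.5%, again each with an interval that overlaps that of the repeat-free bin. The share of repeat-free peaks of height 15 or more was 8.83%, 7.57%, 5.29% and 8.33% in these 4 bins, with overlapping intervals.

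**Figure D2:**
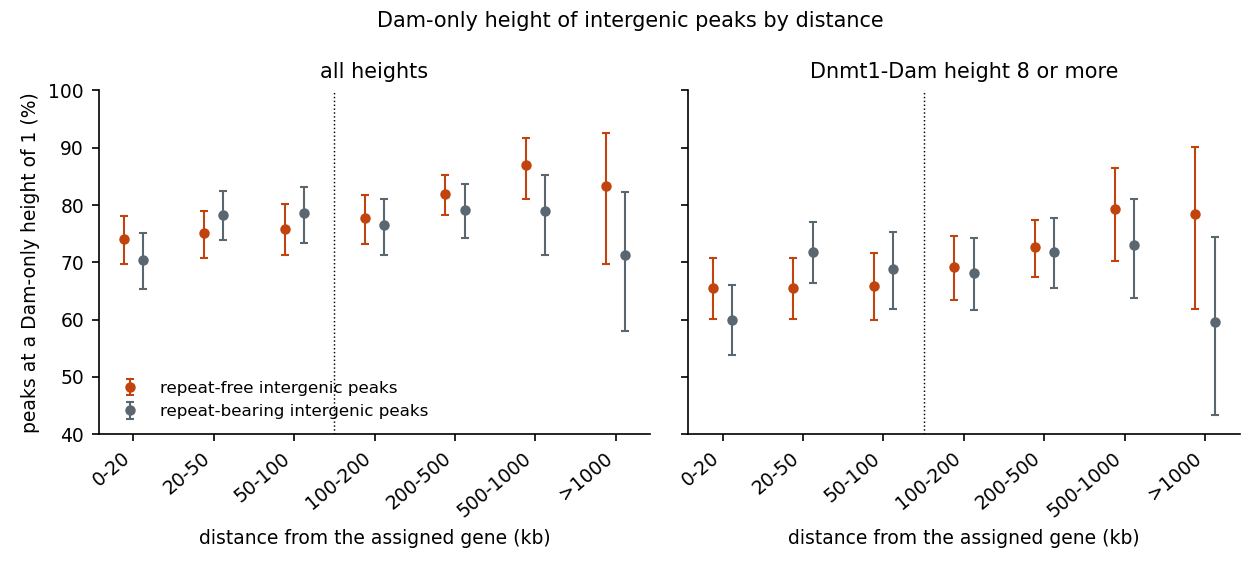
Share of intergenic peaks at a Dam-only height of 1 (vertical axis, %, from 40) in bins of distance from the assigned gene (horizontal axis, kb), for peaks without and with a repeat. Points are shares, bars exact 95% binomial intervals, and the dotted line marks 100 kb. Repeat-free points lie between 74.1% and 75.9% left of the line and between 77.7% and 87.1% right of it in the left panel, and the right panel repeats this for heights of 8 or more.

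CpG islands are short CpG-rich stretches found at many promoters, and shores and shelves are the zones beside them. Such a context was given for 544 of all 8226 peaks (6.61%) and was rarer in gene deserts. It was given for 24 of the 1092 peaks (2.20%, 1.41 to 3.25), namely 1 island, 12 shores and 11 shelves, and for 97 of the 1262 near-gene peaks (7.69%, 6.28 to 9.30). The difference was -5.49 points (-7.24 to -3.78), with gene deserts lower on 16 of 19 autosomes. Against repeat-free gene body peaks, of which 7.74% had such a context, it was -5.54 points (-6.90 to -4.07). Repeat-bearing gene desert peaks, at 2.35%, did not differ detectably (difference -0.148 points, -1.62 to 1.20). Distance from the gene is part of the rule for gene deserts, and many islands lie at gene starts.

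Heights at these 24 positions lay from 7 to 11, the interquartile range of all gene desert peaks, except for 1. The peak in a shore 275 kb downstream of D3Ertd751e (chromosome 3, 41837361) reached 22 against 1. At height 11 there were 4 more. Those at Etaa1, a gene of the replication stress response, at Prps1l1 and at Tfap2a, a transcription factor gene of neural crest and trophoblast, had 11 against 1 each, and that at Sfswap, a splicing factor gene, had 11 against 5. The peak in an island lay 909 kb upstream of Zkscan2 and stood at the floor, 7 against 1 (named after its values were seen).

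**Figure D3:**
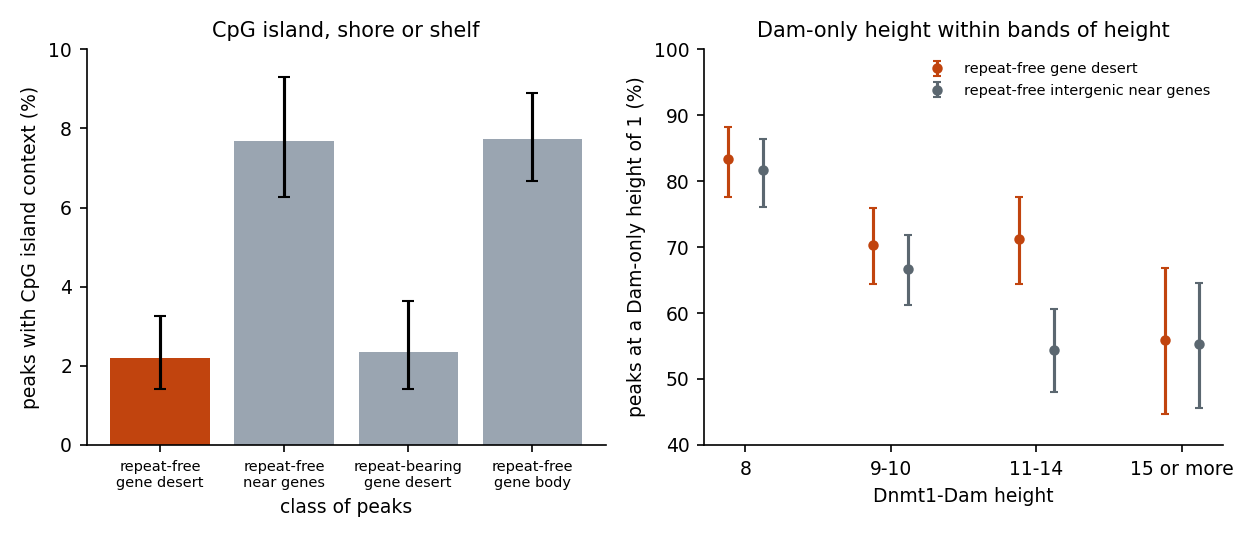
Left, share of peaks with a CpG island, shore or shelf context (vertical axis, %) in 4 classes of peaks. Right, share of peaks at a Dam-only height of 1 (vertical axis, %, from 40) within bands of Dnmt1-Dam height (horizontal axis) for gene desert and near-gene repeat-free peaks. Bars are exact 95% binomial intervals, and the classes part at 2.20% and 2.35% against 7.69% and 7.74% on the left, and at heights of 11 to 14 on the right.

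Peaks of any class were sparser around gene desert peaks. The median number of other peaks within 1 Mb on either side was 6 (interquartile range 4 to 9) at gene desert peaks and 8 (5 to 10) at near-gene peaks, and 6 and 8 at repeat-bearing gene desert and repeat-free gene body peaks. Across distance bins of repeat-free intergenic peaks the median was 8 within 20 kb, 8 from 20 to 50 kb and 7 from 50 to 100 kb. It was also 7 for both bins from 100 to 500 kb, and then 4.5 from 500 to 1000 kb and 3 beyond. The peak nearest to a gene desert peak was at a median of 104 kb (interquartile range 29.4 to 253 kb). At close range the picture was different, as 130 gene desert peaks (11.9%, 10.04 to 13.97) had another peak within 1 kb, with 13.2% among near-gene peaks (difference -1.33 points, -4.00 to 1.38) and 11.97% among repeat-free gene body peaks. Of these 130, the neighbour was another repeat-free gene desert peak for 102 and a repeat-bearing one for 28, and 115 gaps were at most 200 bp, with a median of 115 bp. Such close peaks may share DNA fragments and are not independent. Peaks with such a neighbour had a median height of 10, and the others of 8.

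The 1092 peaks were assigned to 700 genes, of which 451 had 1 such peak, 149 had 2 and 100 had 3 or more. The transcripts assigned to them had a median length of 51.5 kb, against 27.1 kb for near-gene peaks and 87.9 kb for repeat-free gene body peaks. Around Stc2, which encodes a secreted stanniocalcin glycoprotein (chromosome 11, 31259441 to 31270061), 5 of 6 peaks lay within 18.6 kb, the largest group of gene desert peaks in which each was no more than 100 kb from the next. Of these, 4 lay between 31399681 and 31400101, with heights of 7, 13, 18 and 14, each against 1. The remaining upstream peak had 11 against 4, and the downstream one 11 against 2. Counted in runs of peaks no more than 1 kb apart, the 6 peaks are 3 positions.

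Btbd3, a gene of dendrite orientation in neurons (chromosome 2, 138082320 to 138113158 over its listed transcripts), also had 6 peaks, at 7 against 1 for 5 of them and 9 against 1 for the last, the farthest at 378 kb. These values lie at or next to the floor of the list. Cdh18 had 4 peaks upstream and 1 downstream, over 1748 kb in all. Their heights were 10, 7, 9 and 31 upstream, against Dam-only heights of 1, 1, 1 and 5, and 10 against 3 downstream. Cdh2, which encodes N-cadherin (chromosome 18, 16747386 to 16967558), had its 5 peaks upstream, out to 1438 kb, with 20 against 1 at 17629861 and 7 to 9 at the others. At both cadherin genes a single peak stood above a row of low ones.

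Zfp608 and Zfp516, zinc finger genes of chromosome 18, each had a group of 4 peaks, 2 of the 5 groups of that size and those with the highest summits. Those of Zfp608 spanned 119 kb upstream, with heights of 18, 7, 9 and 8 against 3, 1, 1 and 1, and its downstream peak had 16 against 2. Those of Zfp516 spanned 153 kb downstream, with heights of 8, 8, 8 and 28 against 1, 1, 2 and 3. Zfp503, a developmental zinc finger gene (chromosome 14), had 5 peaks upstream at 7 to 9 against 1 or 2, of which 4 lay 869 to 895 kb away. Ptbp2, a splicing regulator of neurons (chromosome 3), had 4 peaks upstream, the highest of 15 against 1 at 119938521, and 1 downstream of 11 against 1.

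**Figure D4:**
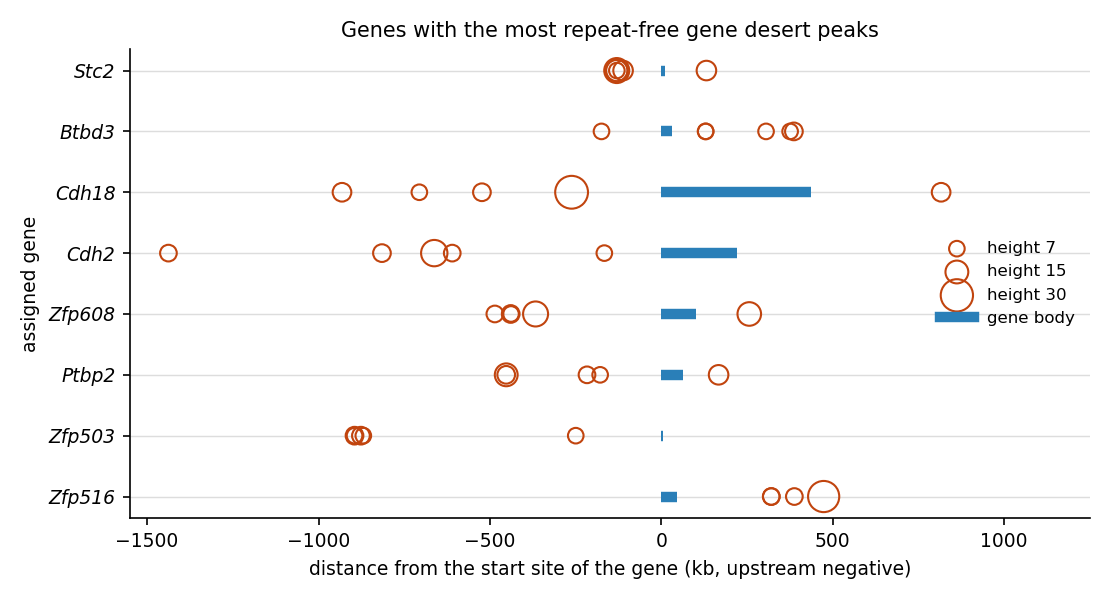
Gene desert peaks of the 7 genes with 5 or 6 of them and of Zfp516, which has the highest summit among the 27 genes with 4, by signed distance from the start site of the assigned transcript (horizontal axis, kb, upstream negative), 1 row a gene. Circle area is the Dnmt1-Dam height and the bar the longest listed gene body. The 5 peaks of Cdh2 and of Zfp503 lie upstream, the 4 of Zfp516 downstream, and 4 of the circles at Stc2 overlap.

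Genes were also grouped into 8 lists by the first letters of their symbols, which takes in some genes of another function and misses some of the one named, and each list's share of gene desert peaks was set beside its share of all peaks. No test was made of these shares, and being far from a gene is what the rule asks for, so genes flanked by wide empty stretches are bound to be counted more. In all, 240 of the 1092 peaks (22.0%) fell to 125 genes of the lists. Adhesion and axon guidance genes held 94 gene desert peaks (8.61%, 7.01 to 10.4), against 2.06% of near-gene peaks (1.35 to 3.004) and 4.18% of all peaks, at 41 of the 95 listed genes that have any peak. The median height was 9, and 75 of the 94 stood at a Dam-only height of 1. Beside the cadherins, Robo1, an axon guidance receptor gene, had peaks of 22 against 7 at 133 kb downstream and 7, 7 and 9 against 1 elsewhere. Epha4, an ephrin receptor gene, had 4 peaks downstream, the highest of 20 against 6 at 481 kb. Slitrk1, a synaptic adhesion gene, had 21 against 1 at 467 kb upstream and 17 and 9 against 1 at 923 and 838 kb downstream. The 4 peaks of Cntnap5b, out to 1551.7 kb, all had 7 against 1. Robo1, Epha4, Slitrk1 and Cntnap5b, and the further genes named below beside the 2 highest peaks of a list, were picked after their values were seen.

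Developmental transcription factor genes held 57 peaks (5.22%, 3.98 to 6.71), against 2.14% of near-gene peaks (1.41 to 3.10) and 2.10% of all peaks, at 33 of 73 genes. Of the 57, 50 stood at a Dam-only height of 1, and the median height was 9. After Tcf4, the highest was at Sox3, a neural and pituitary factor of the X chromosome, where peaks at 58428371 and 58428461 had 12 and 21 against 1. Sox2, a pluripotency factor expressed in the early embryo, had 3 peaks downstream. The first, 187 kb from the gene, had 7 against 1, and a close pair 312 kb away had 15 and 16 against 1. Klf4, another pluripotency factor, had 8 and 11 against 1 at 404 and 523 kb upstream. Gata3, a trophoblast factor, had 12 against 2 and 7 against 1 at 447 and 496 kb downstream. The Iroquois homeobox genes Irx1, Irx2 and Irx4, which form a cluster on chromosome 13, had 7 against 1, 14 against 5 and 8 against 2, and 7 against 1. Tbx3, a T-box factor, had 4 peaks upstream of 7 to 10, each against 1.

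Genes with symbol prefixes of ion channels and neurotransmitter receptors, among them the neuropeptide gene Npy but not channel genes such as Hcn4, held 42 peaks (3.85%, 2.79 to 5.16), against 1.27% of near-gene peaks (0.726 to 2.05) and 2.37% of all peaks, at 28 of 96 genes. Among them, the adrenergic receptor gene Adra1b had a peak of 18 against 4 at 181 kb upstream (chromosome 11, 43831111). A related receptor gene, Adra2a, had 4 peaks downstream with 15, 14, 11 and 9 against 1. Zinc finger genes named Zfp held 30 peaks (2.75%, 1.86 to 3.90), against 1.58% of near-gene peaks (0.971 to 2.44) and 1.24% of all, at 13 of 61 genes, and 21 of the 30 stood at a Dam-only height of 1. The second highest peak of that list was at Zfp521, with 19 against 1, and the peak 120 bp from it had 13 against 6.

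The other lists had few peaks here. Olfactory and vomeronasal receptor genes, which sit in dense clusters, had none of the 1092 (an upper 95% limit of 0.337%, and 3 counts would be 0.275%), against 16 near-gene peaks (1.27%) and 41 of all peaks (0.498%). ADAM and ADAMTS metalloprotease genes had 9 (0.824%, with 0.634% of near-gene and 0.547% of all peaks), the highest at Adamts15, 13 against 1. The next, of 12 against 1, was 1018 kb from Adam6a, a gene inside the immunoglobulin heavy chain locus, whose gene segments the table does not list as genes. Ribosomal protein genes had 5 peaks (0.458%, with 0.238% of near-gene and 0.267% of all peaks), of which that at Rpl37 reached 62 and the 4 at Rps24 and Rps29 did not pass 7. Genes of DNA methylation and silencing had 3 (0.275%, with 0.158% of near-gene and 0.255% of all peaks). These were 11 against 4 at Hdac9, a histone deacetylase gene, and 7 against 1 at both peaks of Mbd2, which binds methylated CpG.

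Gene desert peaks made up differing shares of the peaks of each chromosome. On the autosomes they were 13.4% of all peaks, and the exact interval of chromosomes 3, 12, 13 and 18 lay above that share, that of 5, 7 and 11 below, and that of the other 12 contained it. Chromosome 18 had the highest share, 63 of 289 peaks (21.8%, 17.2 to 27.0), and also the highest density, 0.695 per Mb (0.534 to 0.889). The lowest autosomal density was 0.268 per Mb (0.191 to 0.365), on chromosome 6. By density, only chromosomes 13 and 18 had an interval above the autosomal 0.435 per Mb, and only 6 and 7 one below. Chromosomes 3, 5, 11 and 12 thus stood out by share only, which also depends on the other peaks of a chromosome. No interval was adjusted for the number of chromosomes. The share of gene desert peaks at a Dam-only height of 1 ran over the autosomes from 69.8% (chromosome 18, 63 peaks) to 91.2% (chromosome 4, 68 peaks). These are the extremes, no interval was computed for them, and the spread between chromosomes was not tested. The X chromosome held 19 gene desert peaks, a density of 0.114 per Mb (0.0687 to 0.178), set against 0.435 on the autosomes. Their ratio was 0.263 (exact conditional interval 0.158 to 0.412). For all other peaks the same ratio was 0.379 (0.325 to 0.440), and the intervals overlap. The labels give no sex for the pooled embryos. Beside the pair at Sox3, 3 of the X peaks were assigned to Slitrk2, a synaptic adhesion gene, with heights of 9, 8 and 10 against 3, 1 and 1.

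**Figure D5:**
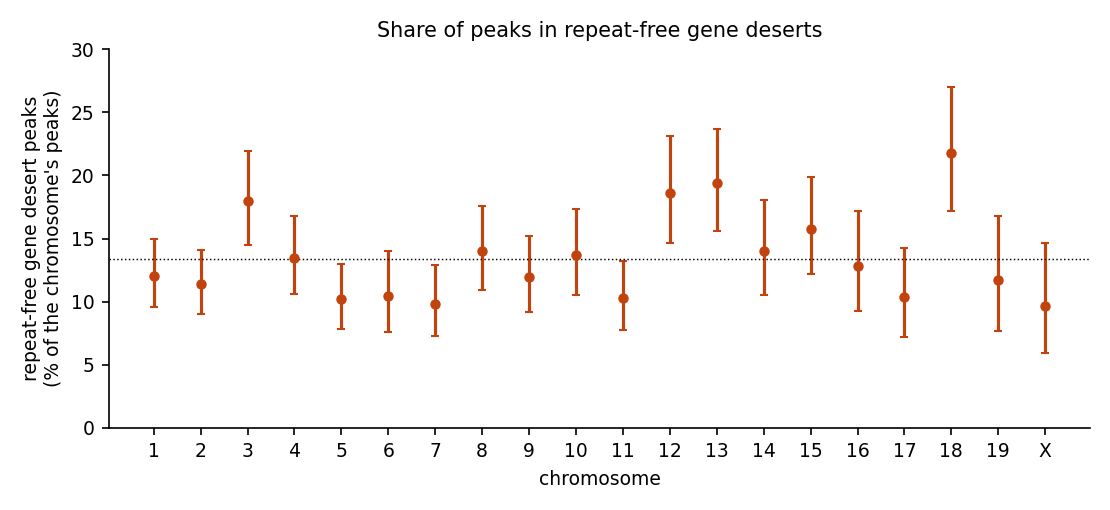
Repeat-free gene desert peaks as a share of all peaks of a chromosome (vertical axis, %), for the autosomes and X (horizontal axis). Points are shares, bars exact 95% binomial intervals, and the dotted line is the autosomal share of 13.4%. Chromosomes 3, 12, 13 and 18 lie above the line with their whole interval, and 5, 7 and 11 below it.

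The absence of a repeat was about as common at gene desert as at nearer intergenic peaks. It was more common at gene body peaks, with 66.3% of 3492 (64.7 to 67.8). Of 1902 intergenic peaks beyond 100 kb, 57.4% (55.2 to 59.6) had no repeat named, and of 2278 nearer intergenic peaks 55.4% (53.3 to 57.5), a difference of 2.01 points (-1.01 to 5.02). The repeats at the remaining peaks differed in 2 of the 3 retroelement classes. SINEs, short elements that gather in gene-rich DNA, were named at 11.3% of the gene desert and 18.2% of the nearer intergenic peaks (difference -6.87 points, -8.99 to -4.73). LINEs, longer autonomous elements, were named at 13.0% and 8.91% (difference 4.08 points, 2.18 to 6.01). For LTR elements, which derive from retroviruses, the shares were 13.9% and 14.004% (difference -0.0708 points, -2.17 to 2.05), so no difference was detectable. How much of each stretch the elements cover was not analysed here.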

How the data were processed

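Adenine methylation left by Dnmt1-Dam and by Dam-only was sequenced in 1 library per group. The tools CASAVA and BWA and the build mm9 were used, per the submitters' processing notes. Not given in the sources used here are the peak caller, its thresholds, the read totals and the duplicate handling, and the depth is therefore unknown. The deposited heights, whole numbers of unstated scaling, were used as signal and not as read counts. A peak is 1 position, in steps of 10 bp, without a width.

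Shares have exact Clopper-Pearson intervals, differences of shares Newcombe intervals and density ratios exact conditional intervals, all at 95% (Python 3.11.15, scipy 1.17.1, statsmodels 0.14.6). Density used the length of each chromosome up to its last peak. The intervals treat peaks as independent and cover counting error only, since PCR reads without molecular identifiers are not independent molecules. For 3 other classes 23 differences were computed, of which 10 had an interval without 0. A further 4 within bands of height (1 without 0) and 4 of repeat shares (2 without 0) were computed, beside the alternatives, and none was adjusted for their number.

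Gene names come from the RefSeq table of another build (GRCm38.p6), by accession for 1067 peaks and gene ID for 19, and 6 kept the name or accession of the file. None of its coordinates was used. The 8 lists are symbol prefixes, with the Rps6k kinases left out of the ribosomal list after matching. Named were the 10 highest peaks (ties by lower Dam-only height), the 8 genes with the most peaks (ties by their highest peak), the 5 farthest peaks, the 4 highest with CpG context (ties by lower Dam-only height), the 2 highest of each list, the 3 largest groups of peaks each no more than 100 kb from the next (ties by their highest peak), and the 4 peaks nearest the threshold. Of those, 1 peak was left out of the text. The rule and lists were chosen with earlier results of these data known. The alternatives were other minimum heights, distances, pseudocounts and scalings, 1 peak per 1 kb run, and a Dam-only height of 1. No sequence is shown, as a genome of the same build was not used here.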

Additional observations from a re-analysis of the deposited data

How the results depend on the processing

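No paired analysis was possible because each group has 1 library, and for the same reason no replicate could be left out. Of 91 recalculated values, 60 stayed inside the main interval or interquartile range. With height 9 or more, gene desert peaks were 12.4% of the list, 68.5% stood at a Dam-only height of 1, 15.6% reached 15, 50.3% reached a ratio of 10, 16.7% had a neighbour within 1 kb, and the median log2 ratio was 0.51. With height 15 or more (84 peaks) these were 11.8%, 56.0%, by definition all, 61.9%, 19.0% and 0.72, the median height was 16, 67.9% were upstream, 1.19% had CpG context, the repeat-free share differed by -2.23 points, and the difference from near-gene peaks in the share at a Dam-only height of 1 was 0.689, no longer with an interval without 0. In the other alternatives run that difference kept an interval without 0 (5.34 to 8.26 points). Beyond 50 kb the peaks were 17.9% of the list and beyond 200 kb 8.59%, with 0.990% in CpG context. At a Dam-only height of 1 they were 14.2%, 5.29% reached 15, 30.0% reached a ratio of 10, and the log2 ratio was -0.19. Unscaled it was 2.17. With height 8 or more, 72.6% stood at a Dam-only height of 1. The difference in the median number of peaks within 1 Mb, -2, was -1.5 at height 15 or more, and -1 at height 9 or more, beyond 50 or 200 kb, with 1 peak per 1 kb run and at a Dam-only height of 1. Shifts with minimum height follow in part from the list's floor, and the cause of the others was not tested. The unknown depth limits what can be said of single heights.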

Other observations

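Isolated peaks were few both in gene deserts and over all 8226 peaks, of which 68 (0.827%) had no other peak within 1 Mb. Of the 1092, 12 (1.10%) had no other peak of any class within 1 Mb, against 7 of 1262 near-gene peaks (0.555%, difference 0.544 points, -0.206 to 1.41), 7 of 2314 repeat-free gene body peaks (0.303%, difference 0.796 points, 0.228 to 1.62) and 22 of 810 repeat-bearing gene desert peaks (2.72%, difference -1.62 points, -3.06 to -0.393). Their heights ran from 7 to 12. Beside the peak at Adam6a they included Luzp2, with 10 against 1, Maml2, a coactivator of Notch signalling, with 10 against 2, and Tle1, a Groucho corepressor gene, with 8 against 1. The adhesion genes Fat4, Pcdh10 and Cdh9, and Apob, the apolipoprotein B gene, each had 7 against 1. The genes in this paragraph were picked after their values were seen. The Y chromosome held 1 peak in the whole list, a gene desert peak of 9 against 3 assigned to the germline gene Rbmy.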
